A study of Rattus norvegicus with 16 samples.

Results

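The sarcoplasmic reticulum calcium handling genes described here are Sln, Pln, Jph1, Jph2, Casq1 and Casq2. They were chosen by gene symbol in the platform's annotation table, and 6 of the 14557 genes tested carry these symbols, each with 1 transcript cluster of its own on the array. Expression was measured in plantaris muscle from Sprague Dawley rats, which the labels call retired breeders and for which they name no transgene. The Achilles tendon had been excised on both sides, which takes gastrocnemius and soleus out of action and shifts the load to the plantaris. The 4 groups were control muscle without overload (day 0) and muscle collected 3, 7 and 28 days after surgery, each with 4 arrays. No sham surgery was analysed here, so load and surgery cannot be told apart. The labels do not state whether the 4 replicates of a group are different rats. If they are not, the spread behind every p-value is technical.

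The sarcoplasmic reticulum stores the calcium that makes a muscle fibre contract. Depolarisation of the transverse tubule opens release channels in the facing reticulum membrane, and SERCA pumps then return the calcium to the lumen. Sln encodes sarcolipin and Pln encodes phospholamban, small membrane proteins that inhibit these pumps. Jph1 and Jph2 encode junctophilins, which tether the reticulum to the tubule membrane. Casq1 and Casq2 encode calsequestrins, which bind calcium inside the reticulum near the release channel. Casq1 is the main calsequestrin of adult skeletal muscle, while Casq2 is the form of the heart and is also made in slow fibres. Phospholamban is likewise a protein of heart and slow fibres.

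The values are log2 expression values made by the authors, so a difference of 1 is a doubling. Differences are given between group means with the standard error from limma, and "rose" or "fell" marks a p-value under 0.05 after adjustment over all 14557 genes. On the log2 scale, 5 of the 6 genes were bright, with means over the 16 arrays of 11.92 for Casq1, 10.20 for Casq2, 10.08 for Sln, 9.92 for Jph1 and 8.82 for Jph2. Pln was dim, with a mean of 5.19. The median over the tested genes of an array lay between 4.16 and 4.71. Levels of different clusters are not compared, because each cluster has its own probes.

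The 6 genes followed different courses. Sln and Casq2 rose to a peak at day 7 and were back near their day 0 level at day 28. Casq1, Jph1 and Jph2 were lowest at day 3 and higher again at day 7. Pln was low at days 3 and 7 and recovered in part by day 28. Over the 4 days each of the 6 passed limma's moderated F test, with adjusted p from 9.17e-09 for Sln to 5.06e-04 for Pln, where 43.8% of all genes passed.

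**Figure D1:**
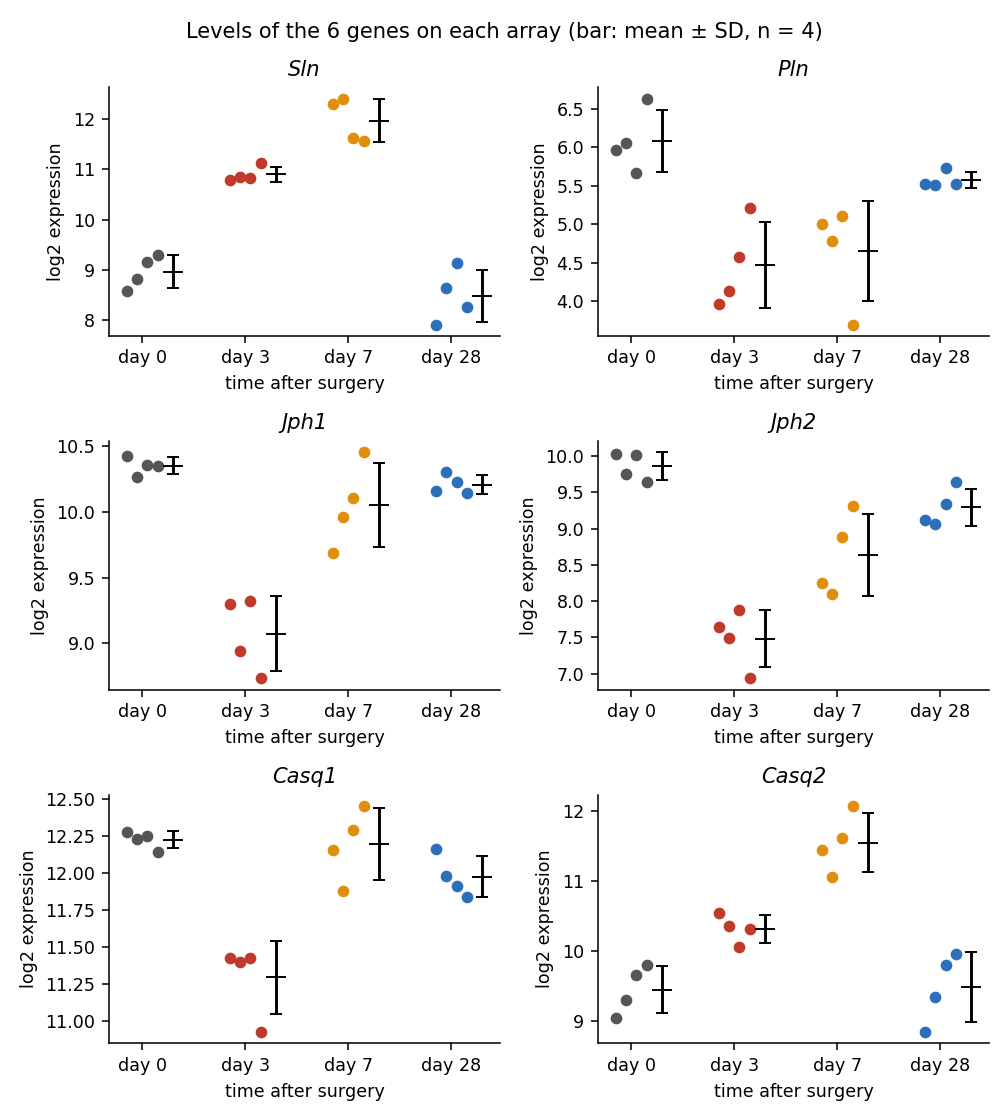
Log2 expression of each gene on each of the 16 arrays by day after surgery, with the mean and SD of each group of 4 beside the points. Each panel has its own vertical range. Sln and Casq2 are highest at day 7 (means 11.98 and 11.55), while Jph1, Jph2 and Casq1 are lowest at day 3 (9.07, 7.48 and 11.29).

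Sarcolipin gave the largest rise of the 6. Sln read 8.58, 8.81, 9.15 and 9.30 on the day 0 arrays and 10.80, 10.84, 10.83 and 11.13 on the day 3 arrays. At day 7 the arrays read 12.30, 12.40, 11.63 and 11.57, and at day 28 they read 7.90, 8.63, 9.13 and 8.25. All day 3 arrays lay above all day 0 arrays, all day 7 arrays lay above all day 3 arrays, and the day 28 arrays overlapped only those of day 0. Against day 0, Sln was 3.84-fold higher at day 3 (log2 difference 1.94 ± 0.25, adjusted p = 4.83e-06) and 8.09-fold higher at day 7 (3.02 ± 0.25, adjusted p = 7.45e-08). By size it stood 645th among the rises of the tested genes at day 3 and 57th at day 7. From day 7 to day 28 it fell by 3.499 ± 0.25 on the log2 scale, or 11.3-fold (adjusted p = 2.16e-07), the seventh largest fall in that comparison. The day 28 mean of 8.48 lay below the day 0 mean of 8.96, a difference of -0.48 with a 95% interval from -1.002 to 0.04 that did not pass (adjusted p = 0.257). In order, the levels of day 28 and day 0 did not differ beyond their spread, while day 3 stood above both and day 7 above day 3 (1.08 ± 0.25, adjusted p = 0.00580).

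Phospholamban moved the other way. Pln read 5.96, 6.06, 5.67 and 6.63 on the day 0 arrays and 3.97, 4.13, 4.58 and 5.21 on the day 3 arrays. The day 7 arrays read 5.004, 4.78, 5.11 and 3.70, and the day 28 arrays read 5.52, 5.51, 5.73 and 5.52. The arrays of days 3 and 7 all lay below those of day 0 and of day 28, and overlapped each other. Pln was 3.05-fold lower at day 3 (-1.61 ± 0.30, adjusted p = 2.38e-04) and 2.702-fold lower at day 7 (-1.43 ± 0.30, adjusted p = 0.00116) than at day 0. Days 3 and 7 did not differ beyond their spread (0.18 ± 0.30, adjusted p = 0.782). At day 28 the difference from day 0 was -0.51, with a 95% interval from -1.14 to 0.12 (adjusted p = 0.332). The rise from day 7 to day 28 was 0.92 ± 0.30 (adjusted p = 0.0390), and it did not pass without day 7 replicate 2 (0.97) or 4 (0.61), without any 1 of the 4 day 28 arrays (0.87 to 0.95), or with the replicate number as a block (0.92, adjusted p = 0.0650). Its day 3 and day 7 means (4.47 and 4.65) lay near the median of the tested genes, where log2 values of arrays are compressed.

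Among the junctophilins, Jph2 fell further than Jph1. Jph2 read 10.03, 9.75, 10.01 and 9.64 at day 0 and 7.64, 7.49, 7.87 and 6.94 at day 3. It read 8.25, 8.10, 8.88 and 9.31 at day 7 and 9.12, 9.07, 9.34 and 9.64 at day 28. The arrays of day 0 stood above those of each later day without overlap, although the lowest day 0 array (9.642) and the highest day 28 array (9.637) almost met. The fall at day 3 was 5.19-fold (-2.37 ± 0.24, adjusted p = 3.98e-07) and ranked 27th among all falls. At day 7 Jph2 was still 2.34-fold below day 0 (-1.23 ± 0.24, adjusted p = 8.35e-04), although it had risen from day 3 by 1.15 ± 0.24 (adjusted p = 0.00329). At day 28 the difference from day 0 was -0.57, with a 95% interval from -1.08 to -0.05. It did not pass after adjustment (adjusted p = 0.168), nor did the difference of 0.66 ± 0.24 between days 28 and 7 (adjusted p = 0.0731), which passed without day 7 replicate 4 (0.88). In order, day 3 was lowest and day 7 next, and neither the step from day 7 to day 28 nor that from day 28 to day 0 passed.

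Jph1 read 10.42, 10.27, 10.36 and 10.35 at day 0 and 9.30, 8.94, 9.32 and 8.74 at day 3. Its day 7 arrays read 9.69, 9.96, 10.11 and 10.45, and its day 28 arrays 10.16, 10.31, 10.22 and 10.15. The day 3 arrays lay below all others, while the arrays of days 0, 7 and 28 overlapped. Jph1 was 2.42-fold lower at day 3 than at day 0 (-1.28 ± 0.16, adjusted p = 3.51e-06) and rose by 0.98 ± 0.16 from day 3 to day 7 (adjusted p = 3.60e-04). At day 7 its difference from day 0 was -0.30, with a 95% interval from -0.63 to 0.04 (adjusted p = 0.168). That difference passed without day 7 replicate 4 (-0.43, adjusted p = 0.0416). At day 28 it was -0.14, with an interval from -0.48 to 0.19 (adjusted p = 0.654).

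The calsequestrins moved in opposite directions at day 3. Casq1 read 12.28, 12.23, 12.25 and 12.14 at day 0 and 11.42, 11.40, 11.43 and 10.92 at day 3. It read 12.16, 11.88, 12.29 and 12.45 at day 7 and 12.16, 11.98, 11.91 and 11.84 at day 28. The day 3 arrays lay below all others, and the other days overlapped. Casq1 was 1.91-fold lower at day 3 than at day 0 (-0.93 ± 0.14, adjusted p = 3.96e-05), and rose by 0.90 ± 0.14 to day 7 (adjusted p = 3.29e-04). Its day 7 level differed from day 0 by -0.03, with a 95% interval from -0.33 to 0.27 (adjusted p = 0.9002), and its day 28 level by -0.25, with an interval from -0.55 to 0.05 (adjusted p = 0.321). Casq1 values lay near the top of the scale, where the highest value of any cluster was 13.64.

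Casq2 read 9.04, 9.30, 9.65 and 9.79 at day 0 and 10.55, 10.35, 10.06 and 10.31 at day 3. It then read 11.44, 11.05, 11.62 and 12.07 at day 7 and 8.84, 9.34, 9.80 and 9.96 at day 28. The day 3 arrays lay above those of days 0 and 28, and the day 7 arrays above all others. Casq2 was 1.83-fold higher at day 3 than at day 0 (0.87 ± 0.25, adjusted p = 0.00798) and 4.30-fold higher at day 7 (2.10 ± 0.25, adjusted p = 4.44e-06). The day 3 rise was smaller and did not pass when each array was centred on its median over the tested genes (0.41, adjusted p = 0.141). From day 7 to day 28 Casq2 fell by 2.06 ± 0.25 (adjusted p = 3.19e-05), the 52nd largest fall. Days 28 and 0 differed by 0.04, with a 95% interval from -0.48 to 0.56 (adjusted p = 0.950), and day 28 lay below day 3 by a log2 difference of -0.83 ± 0.25 (adjusted p = 0.0137), which did not pass without day 28 replicate 1 (-0.62).

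**Figure D2:**
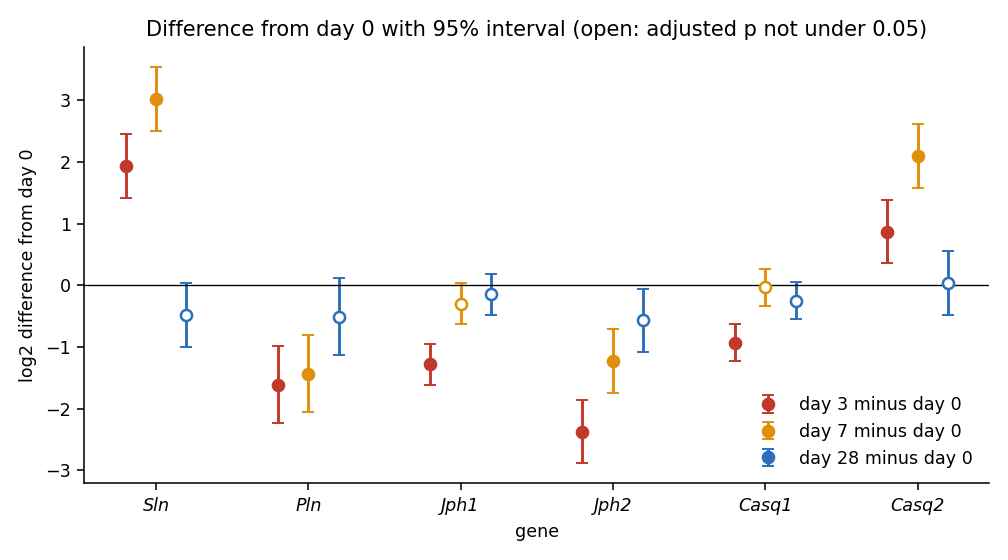
Log2 difference from day 0 of each gene at days 3, 7 and 28, with its 95% interval from limma (4 arrays per day). Filled points passed an adjusted p of 0.05 and open points did not. At day 3 all 6 are filled, and at day 28 all 6 are open.

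Counted over the comparisons, 2 of the 6 genes (Sln and Casq2) rose and 4 fell at day 3 against day 0, in a comparison where 41.3% of all genes passed, 21.7% as higher and 19.6% as lower. The arrays of both days were apart in 6 of 6, and in 39.3% of all genes. At day 7 against day 0, Sln and Casq2 rose, Pln and Jph2 fell, and 2 did not pass. Here 31.7% of all genes passed, 16.9% as higher and 14.9% as lower, and arrays were apart in 4 of the 6 and in 32.1% of all genes. At day 28 against day 0 limma passed 0 of the 6, where 9.09% of all genes passed (6.29% higher, 2.8% lower). Jph2 alone of the 6 had an unadjusted p under 0.05 (0.0328), as did 23.1% of all genes, and was the 1 gene of the 6 whose arrays were apart, as in 15.9% of all genes. With arrays centred on their median over all tested genes, 3 of the 6 passed as lower at day 28: Jph2 (-0.82), Sln (-0.73) and Casq1 (-0.50). With that centring 24.6% of all genes passed at day 28 and 20.9% passed as lower. Centring in this way shifted all differences from day 0 by about -0.46, -0.36 and -0.25 at days 3, 7 and 28. As deposited, the median difference over all genes was only -0.05, -0.04 and -0.005 on these days. At day 3 the median level of the tested genes was higher than at day 0. That of all clusters was lower, 3.185 to 3.26 against 3.36 to 3.41. The centring thus follows the median level of the tested genes and does not mirror the typical change of a gene.

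After day 3 the direction was at first mostly upward. From day 3 to day 7, 5 of the 6 rose, all but Pln, and 0 fell, where 15.3% of all genes passed, 6.02% as higher and 9.23% as lower. Arrays were apart in 5 of the 6 and in 18% of all genes. From day 7 to day 28, Pln rose, Sln and Casq2 fell and 3 did not pass, where 17.6% of all genes passed, 8.24% as higher and 9.38% as lower. Arrays were apart in 3 of the 6 and in 21.1% of all genes. From day 3 to day 28, Pln, Jph1, Jph2 and Casq1 rose and Sln and Casq2 fell, where 32.7% of all genes passed, 15.9% as higher and 16.8% as lower. The 2 days were apart in 6 of 6 and in 31.8% of all genes. These comparisons share arrays with those against day 0.

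Each gene was set against its relative on the same array, so that any scaling of a whole array cancels. Only the change of this difference between days is read, because each cluster has its own probes. Compression of log2 values does not cancel, and Pln lay near the median of the tested genes at days 3 and 7 and Casq1 near the top of the scale. Unequal changes are therefore those of the array values. Differences were tested by exact two-sided permutation of the 8 arrays of both days, with p-values adjusted over the 9 tests. The smallest p that 4 against 4 arrays allow is 0.0286. The log2 difference Sln minus Pln was 2.88 ± 0.41 (SD, n = 4) at day 0, 6.43 ± 0.42 at day 3, 7.33 ± 0.59 at day 7 and 2.91 ± 0.44 at day 28. The arrays of days 3 and 7 lay wholly above those of day 0, so the change in Sln exceeded that in Pln by 3.55 at day 3 and 4.45 at day 7 (exact permutation adjusted p = 0.0429 for both). At day 28 the unequal change was 0.03 (exact permutation adjusted p = 0.943), with arrays from 2.38 to 3.39 against 2.61 to 3.49 at day 0.

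Jph1 minus Jph2 was 0.49 ± 0.16 (SD, n = 4) at day 0, 1.59 ± 0.17 at day 3, 1.42 ± 0.32 at day 7 and 0.92 ± 0.31 at day 28. Jph2 thus fell further than Jph1, by 1.10 at day 3 and 0.93 at day 7 (exact permutation adjusted p = 0.0429 for both). At day 28 the difference of 0.42 did not pass (exact permutation adjusted p = 0.110), and the arrays ran from 0.51 to 1.24 against 0.35 to 0.71 at day 0. Casq1 minus Casq2 was 2.78 ± 0.39 at day 0, 0.98 ± 0.32 at day 3, 0.65 ± 0.19 at day 7 and 2.49 ± 0.64 at day 28. The change in Casq1 was lower than that in Casq2, with unequal changes of -1.80 at day 3 and -2.13 at day 7 (exact permutation adjusted p = 0.0429 for both). At day 28 the value of -0.29 did not pass (exact permutation adjusted p = 0.514), with arrays from 1.88 to 3.33 against 2.35 to 3.23 at day 0.

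**Figure D3:**
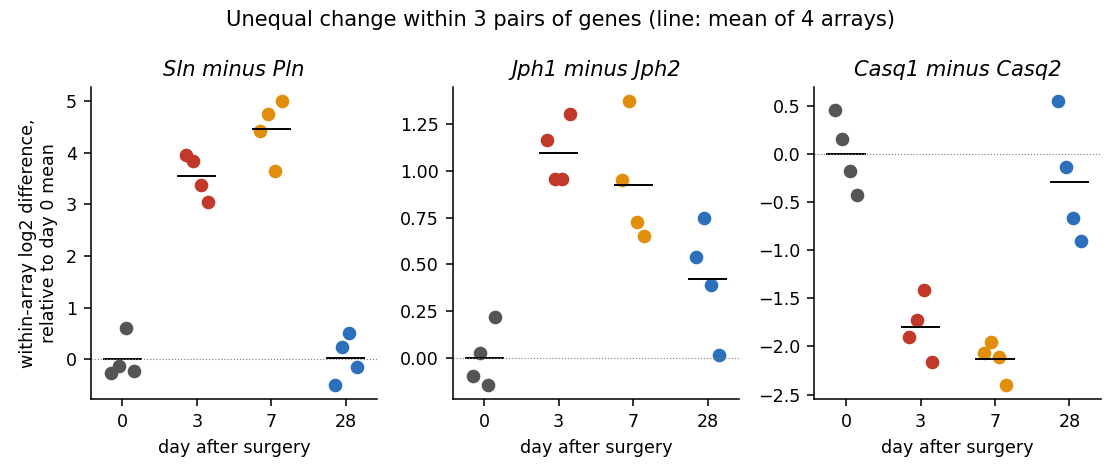
Within-array log2 difference between the members of 3 pairs of genes by day, relative to the day 0 mean, with 1 point per array and a line at the mean of 4. Each panel has its own vertical range. At days 3 and 7 every array lies above every day 0 array for Sln minus Pln and Jph1 minus Jph2, and below for Casq1 minus Casq2.

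Promoter windows are shown for the calsequestrins, which changed in opposite directions at day 3 and for both of which a window was at hand. RefSeq windows on the build GRCr8, from 250 bases before to 50 after the annotated start, matched 4 of the 6 genes, Pln, Jph2, Casq1 and Casq2. Capitals mark the E-box CANNTG, a motif bound by myogenic factors such as MyoD and one that reads the same on both strands, and the MEF2 motif, bound by another family of muscle regulators and searched on both strands. The Casq1 window is chr13:87212661-87212960 on the minus strand and the Casq2 window chr2:192214306-192214605 on the plus strand, each printed 5′ to 3′.
Casq1: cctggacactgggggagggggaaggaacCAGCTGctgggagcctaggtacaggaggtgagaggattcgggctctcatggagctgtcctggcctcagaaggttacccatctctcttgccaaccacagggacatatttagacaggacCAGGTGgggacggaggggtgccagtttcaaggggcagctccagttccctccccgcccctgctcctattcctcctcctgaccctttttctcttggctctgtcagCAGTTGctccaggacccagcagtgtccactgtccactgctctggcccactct
Casq2: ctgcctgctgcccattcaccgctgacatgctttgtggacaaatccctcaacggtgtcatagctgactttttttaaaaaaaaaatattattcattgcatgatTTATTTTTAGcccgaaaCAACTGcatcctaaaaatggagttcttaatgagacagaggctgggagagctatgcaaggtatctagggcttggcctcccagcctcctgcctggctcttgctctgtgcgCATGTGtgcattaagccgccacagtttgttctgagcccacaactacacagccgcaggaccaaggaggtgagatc

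The Casq1 window held 3 E-box matches and the Casq2 window 2, beside 1 MEF2 match that begins 149 bases before the Casq2 start. The Pln window held 2 E-box matches and the Jph2 window 0. Of the 33469 RefSeq windows of this length, 72.1% held an E-box and 3.29% a MEF2 match, and the 2 motifs did not overlap each other in the Casq2 window. A match describes these letters and is not evidence of binding.

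Genes of the same machinery were counted from 6 lists of calcium handling genes. Of 76 listed genes, 35 had a cluster of their own. The pump Atp2a1, the release channel Ryr1, the voltage sensor Cacna1s and triadin (Trdn) were among the other genes and were not analysed here. At day 3, 7 of the 35 rose and 14 fell, with a median difference of -0.23 against -0.05 over all genes, and 60% passed against 41.3% of all genes. At day 7, 8 rose and 10 fell (median 0.09 against -0.04), and 51.4% passed against 31.7% of all genes. At day 28, 2 rose and 2 fell (median -0.07 against -0.01), and the 11.4% that passed lay near the 9.09% of all genes. The counts of single lists that follow are to be set beside the same shares of all genes, 41.3%, 31.7% and 9.09% at days 3, 7 and 28. These shares include many dim genes, and the lists were not compared with genes of like brightness.

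Of the 6 measured genes for the pump and its other regulators, 1 rose and 3 fell at day 3, with a median of -0.70. Atp2a2, the SERCA pump of slow fibres and the heart, read from 9.87 to 10.41 at day 0, from 8.82 to 9.39 at day 3, from 9.60 to 10.05 at day 7 and from 9.65 to 10.96 at day 28. Only its day 3 arrays were apart from those of day 0, a fall of 1.03 ± 0.22 on the log2 scale (adjusted p = 9.51e-04). At days 7 and 28 its differences from day 0 were -0.20 ± 0.22 and 0.31 ± 0.22 and did not pass, although the day 7 difference passed as -0.56 with arrays centred on all tested genes (adjusted p = 0.0408). Ppp1r3a, a muscle subunit that directs protein phosphatase to glycogen and the reticulum, fell at days 3 (-1.38 ± 0.16) and 7 (-0.85 ± 0.16). Prkaca, a catalytic subunit of the protein kinase A that phosphorylates phospholamban, fell at days 3 (-1.09 ± 0.13), 7 (-0.44 ± 0.13) and 28 (-0.45 ± 0.13, adjusted p = 0.0387). Ppp1ca, a catalytic subunit of protein phosphatase, rose at days 3 (0.33 ± 0.11, adjusted p = 0.0251) and 7 (0.33 ± 0.11, adjusted p = 0.0313), but centring arrays on all tested genes turned these to -0.136 and -0.031, neither of which passed.

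Of the 6 measured genes of the release channel's surroundings, 2 rose and 3 fell at day 3, with a median of -0.43. Hrc, a histidine-rich calcium-binding protein of the lumen, fell at day 3 (-1.42 ± 0.16, adjusted p = 1.35e-06) and day 7 (-0.84 ± 0.16, adjusted p = 6.48e-04). Srl, the luminal calcium-binding protein sarcalumenin, fell at day 3 (-1.14 ± 0.18), as did Stac3, an adaptor of excitation-contraction coupling (-0.65 ± 0.17, adjusted p = 0.00424). At day 7 Srl (-0.22 ± 0.18) and Stac3 (-0.18 ± 0.17) did not pass. Tmem38b, a cation channel of the reticulum membrane, was higher at day 3 (0.59 ± 0.14) and day 7, where its arrays read 10.71 to 11.13 against 9.71 to 9.97 at day 0 (1.16 ± 0.14, adjusted p = 4.39e-06). With arrays centred on all tested genes the day 3 difference of Tmem38b was 0.125 and did not pass (adjusted p = 0.414), while Srl (-0.58) and Stac3 (-0.54) passed as lower at day 7. At day 28, 0 of these 6 passed in limma as deposited. With that centring Hrc (-0.61) and Srl (-0.62) passed as lower at day 28, as did 20.9% of all genes.

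Of 9 measured genes of the voltage sensor and transverse tubule, 1 rose and 4 fell at day 3, where 41.3% of all genes passed, and 2 rose and 2 fell at day 7, where 31.7% passed. Cacna2d1, a subunit of the voltage sensor, fell by 1.44 ± 0.17 at day 3 and was still lower at day 7 (-0.72 ± 0.17) and day 28 (-0.73 ± 0.17, adjusted p = 0.0115). Cacng6, a gamma subunit of calcium channels, fell at day 3 (-1.07 ± 0.19) and was higher at day 7 (0.56 ± 0.19, adjusted p = 0.0291), where its arrays overlapped those of day 0. Mtm1, a phosphatase needed for the tubule network, fell at days 3 (-0.75 ± 0.11) and 7 (-0.60 ± 0.11). Dnm2, a dynamin that acts on membranes, rose at days 3 (0.94 ± 0.11) and 7 (0.46 ± 0.11). Under the centring on all tested genes neither Cacng6 (0.20) nor Dnm2 (0.10) passed at day 7. The other junctophilins Jph3 and Jph4 did not pass at day 3 (-0.42 ± 0.20 and 0.05 ± 0.23).

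Among 7 measured genes of store-operated entry and extrusion, Stim1, the calcium sensor of the reticulum, fell at days 3 (-1.28 ± 0.12, adjusted p = 9.72e-08) and 7 (-0.62 ± 0.12). Orai2, a plasma membrane channel subunit, rose at days 3 (1.47 ± 0.21), 7 (1.35 ± 0.21) and 28 (0.75 ± 0.21, adjusted p = 0.0298). Its day 28 arrays overlapped those of day 0. The day 28 call was lost in limma with cyclic loess (0.65, adjusted p = 0.0595) and with arrays centred on all tested genes (0.50, adjusted p = 0.0795). The day 0 mean of Orai2 (4.28) lay near the median of the tested genes, where log2 values are compressed. Atp2b1, a plasma membrane calcium pump, was lower at day 7 (-0.40 ± 0.13, adjusted p = 0.0193), a call lost with cyclic loess (-0.31, adjusted p = 0.0905). Itpr1, the only measured inositol trisphosphate receptor of the list, fell at days 3 (-0.95 ± 0.15) and 7 (-0.53 ± 0.15).

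Of 6 measured cytosolic genes, the calcineurin catalytic subunits Ppp3ca (-0.97 ± 0.12) and Ppp3cb (-1.17 ± 0.13) fell at day 3 and remained lower at day 7 (-0.46 ± 0.12 and -0.77 ± 0.13). Capn2, a calcium-activated protease, rose at days 3 (0.67 ± 0.14) and 7 (0.44 ± 0.14), and Mcu, the mitochondrial calcium channel, at days 3 (0.36 ± 0.12) and 7 (0.44 ± 0.12). With arrays centred on all tested genes, Capn2 (0.20 and 0.08 at days 3 and 7) and Mcu (-0.10 and 0.08) did not pass. S100a1, a calcium-binding protein of striated muscle, rose at day 28 (0.82 ± 0.22, adjusted p = 0.0255). Ppp3ca did not pass at day 28 (-0.34 ± 0.12, adjusted p = 0.0771), although its arrays were apart from those of day 0. It passed in limma with an intensity trend (adjusted p = 0.0255) and with array weights (adjusted p = 0.037). It also passed in limma without the dimmest 50% of genes (adjusted p = 0.0288) and centred on the brighter 50% (adjusted p = 0.0417). Without day 28 replicate 4 it passed as well (limma adjusted p = 0.0264). With arrays centred on all tested genes, Ppp3ca (-0.595) and Ppp3cb (-0.42) passed as lower at day 28, as did 20.9% of all genes, and S100a1 (0.57) did not pass. At day 28 the calls of Prkaca, Orai2 and S100a1 were each lost when all transcript clusters were adjusted together or when 1 of several arrays was left out. Leaving out certain single arrays also lost the day 3 calls of Ppp1ca and Mcu. The same held for the day 7 calls of Prkaca, Ppp1ca, Capn2 and Cacng6 (limma adjusted p from 0.0549 to 0.0988 for Cacng6).

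**Figure D4:**
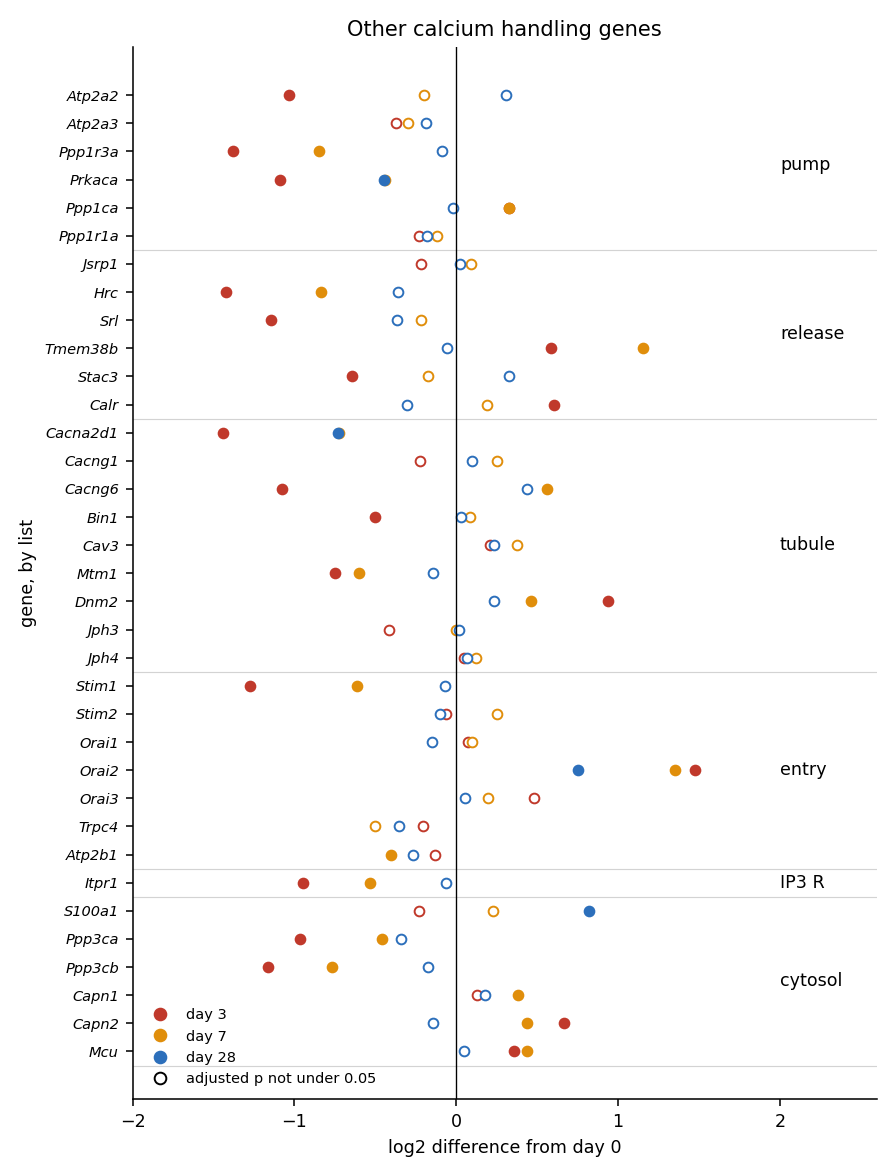
Log2 difference from day 0 of the 35 other calcium handling genes measured, grouped by list, at days 3, 7 and 28. Filled points passed an adjusted p of 0.05. Most genes that fell, such as Hrc (-1.42) and Cacna2d1 (-1.44), are lowest at day 3, and Orai2 (1.47) and Tmem38b (1.16 at day 7) are the largest rises.

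Marker genes of cell types were examined in the same comparisons, where 41.3%, 31.7% and 9.09% of all genes passed at days 3, 7 and 28. Of 6 measured fibre markers, 2 fell and 0 rose at day 3, and their mean lay between 12.82 and 12.89 at day 0, between 12.51 and 12.71 at day 3, and between 12.69 and 12.86 at days 7 and 28. In bulk tissue, fewer fibres and less RNA per fibre cannot be told apart. With arrays centred on these fibre markers, an alternative chosen after seeing the data, the day 3 differences were 2.15 for Sln, -1.40 for Pln, -1.07 for Jph1, -2.16 for Jph2, -0.72 for Casq1 and 1.08 for Casq2. All 6 still passed, although the markers lie near the top of the scale and their own changes are compressed.

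Of 5 slow fibre markers 1 rose and 3 fell at day 3, and at day 28, 3 rose. On the day 0 arrays the mean of the slow list lay between 9.77 and 10.41. It lay between 9.77 and 10.16 at day 3, between 9.85 and 10.37 at day 7 and between 10.21 and 10.92 at day 28. Myh7, the slow myosin heavy chain, had means of 11.35, 9.49, 10.51 and 11.31 on days 0, 3, 7 and 28. The other slow markers did not all follow this course. Tpm3 (7.61, 9.70, 8.72 and 8.29) and Tnnc1 (10.30, 10.77, 11.01 and 11.07) had higher means at day 3 than at day 0. Means were 10.415, 9.89, 10.65 and 11.03 for Tnnt1 and 10.99, 9.79, 9.86 and 11.39 for Myl3. Of 4 fast fibre markers, 2 fell at day 3. Of 3 measured regenerating fibre markers (Myh3, Myog and Mymk), 2 rose at day 3 and 3 at day 7. Their mean lay between 5.54 and 6.04 at day 0, 6.42 to 7.01 on the day 3 arrays, 7.56 to 8.73 at day 7, and between 4.88 and 5.27 at day 28. The 3 markers differed in course: Myh3 (11.05) and Mymk (6.16) had their highest mean at day 7, as Sln and Casq2 did, while Myog was highest at day 3 (8.46) and fell to 7.55 at day 7 (adjusted p = 0.0291). At day 3, where Sln and Casq2 rose, the mean of Myh3 was 8.01 against 8.45 at day 0. At day 28 the Myh3 mean was 5.83. The part of these 3 markers in the changes of Sln and Casq2 was not tested.

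All 7 measured macrophage markers rose at days 3 and 7, with a list mean between 3.89 and 4.34 at day 0, between 8.23 and 8.69 at day 3, between 6.44 and 7.01 at day 7 and between 5.19 and 5.56 at day 28. All 7 fibroblast markers rose at days 3, 7 and 28, and all 5 endothelial markers fell at day 3. Of 6 heart muscle markers 1 rose at day 3, and the means of 6 at day 0 and day 28 and of 5 at days 3 and 7 lay under the median of all clusters. Of 3 smooth muscle markers 1 fell at each of days 3, 7 and 28, with a list mean of 5.54 to 6.46 at day 0 and 5.19 to 5.43 at day 3. The part of these cells in the results was not tested.

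**Figure D5:**
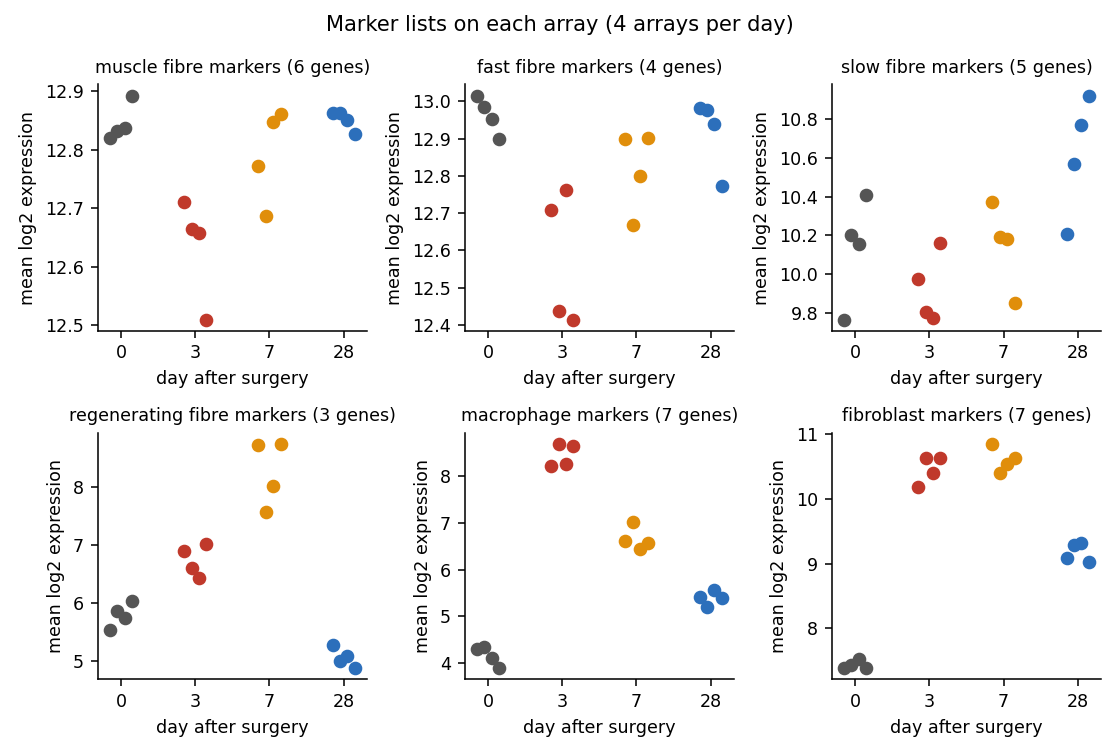
Mean log2 expression of 6 marker lists on each array by day after surgery, with 1 point per array and each panel on its own vertical range. Fibre markers dip at day 3 (12.51 to 12.71), the mean of the regenerating fibre markers is highest at day 7 (7.56 to 8.73), and macrophage markers peak at day 3 (8.23 to 8.69).

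For each of the 6 genes the most similar course over the 16 arrays was sought among 14481 other genes by Pearson's r, given as a description, since the arrays fall into 4 days and the differences between days carry most of it. Closest to Sln were Ptgs2 (r = 0.947), Ankrd1 (0.942) and P4ha3 (0.938). Ptgs2, an inducible prostaglandin synthase, had means of 4.02, 5.70, 6.33 and 4.09 on days 0, 3, 7 and 28, and Ankrd1, a stretch-responsive sarcomere protein, 9.21, 11.96, 12.01 and 8.87. Closest to Pln were Zfp790 (0.951), Bend7 (0.918) and the Notch ligand Dll4 (0.905). For Jph1 they were Gys1, the muscle glycogen synthase (0.964), Fsd2 (0.964) and Sgca, a sarcoglycan (0.963). Jph2 had Myom2, an M-line protein (0.988), Klhl31 (0.983) and Rab10 (0.982), and 357 genes reached an r above 0.9 with it, against 3 for Pln, 9 for Casq2, 24 for Casq1, 26 for Sln and 128 for Jph1. For Casq1 they were Hhatl (0.967), Srl (0.956) and Zhx2 (0.945), and for Casq2 Fam171a2 (0.940), Cd99l2 (0.927) and Sox4 (0.917).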

How the data were processed

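The deposited table holds 1 log2 expression value for each of 36685 transcript clusters on each of 16 Affymetrix Rat Gene 2.1 ST arrays hybridised from 400 ng of RNA per the labels. RMA, oligo and limma are named in the submitters' processing notes, and their versions, order and parameters, the genome build and scan batches are not given in the sources used here. The number of arrays limits the precision. Clusters were named through the platform annotation (14824 with 1 symbol, 829 with several, 21032 unnamed here), and RefSeq gene identifiers renamed 0 symbols. A gene with several clusters was represented by its brightest, which left 14557 genes.

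A group-means model was fitted over all arrays with limma 3.58.1 in R 4.3.3, with empirical Bayes moderation (residual degrees of freedom 12, prior 4.99), two-sided tests and Benjamini-Hochberg adjustment within each of 6 comparisons. The fit was also run on simulated data, with independent normal noise and a small share of genes changed at day 3 only. Far more genes passed in the real data, so that run does not vouch for the calls here. The 6 genes and all lists were chosen with earlier results of these data known. Apart from the 6 genes, the text names up to 3 of each list per comparison against day 0, those with the largest differences among passing genes with arrays apart, the measured ones of 8 fixed genes, and the 3 most similar genes of each of the 6. Jph3, Jph4 and the marker genes were named outside this rule, after their values were seen. Same-numbered replicates correlated between -0.04 and 0.09, none of 24 pairs above 0.1, so replicates were not paired. Alternatives were other variance priors, weights, filters, scalings, cluster choices, blocks and left-out arrays.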

Additional observations from a re-analysis of the deposited data

Results flagged for a closer look

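Among the 108 groups of 4 arrays examined (27 genes on 4 days), 4 held an array far from the other 3, where chance alone gives about 1 group in 20. Day 3 replicate 4 read 11.13 for Sln, against 10.80 to 10.84 on the other day 3 arrays, and 10.92 for Casq1, against 11.40 to 11.43. Day 28 replicate 3 read 5.73 for Pln, against 5.51 to 5.52. Day 7 replicate 1 read 8.43 for Dnm2, against 8.09 to 8.12. Without day 3 replicate 4 the day 3 rise of Sln and fall of Casq1 both still passed.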

How the results depend on the processing

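Every call at day 3 against day 0 held for Sln, Pln, Jph1, Jph2 and Casq1 under all alternatives. With arrays centred on all tested genes, Casq2 no longer passed at day 3 (0.41) or from day 3 to 28 (-0.62). Under the same centring Jph1 (-0.66) and Casq1 (-0.39) passed at day 7, Sln (-0.73), Jph2 (-0.82) and Casq1 (-0.50) at day 28, and Jph2 from day 7 to 28 (0.77); Ppp1ca turned to -0.136 at day 3 and -0.031 at day 7, and Mcu to -0.10 at day 3. Jph2 from day 7 to 28 (0.66) also passed with an intensity trend and without the dimmest 50% of genes. Pln from day 7 to 28 did not pass with the replicate block (0.92), over all transcript clusters (0.92) or centred on the fibre markers (0.87). The replicate block changed no other call of the 6 genes.

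With 1 array left out, Pln from day 7 to 28 ranged from 0.61 to 1.08, Jph2 from 0.48 to 0.88, Casq2 from day 3 to 28 from -0.99 to -0.62 and Jph1 at day 7 from -0.43 to -0.18, each with at least 1 changed call. The unequal changes within pairs kept their calls with cyclic loess; with 1 array left out they were values with no test.

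Centring on all tested genes raised the number of genes that passed to 10321, 8442 and 3587 at days 3, 7 and 28 and to 10223 at any time. Over all transcript clusters the numbers were 11693 and 8312 at days 3 and 7, 8456 from day 3 to 28 and 11584 at any time, since more features were tested. As deposited they were 6013, 4617 and 1323 at days 3, 7 and 28, 4759 from day 3 to 28 and 6383 at any time. At day 3, 52.5% of genes that passed were higher in the deposited values. The share was 18.2% after centring on all tested genes, 37.7% on the brighter 50% and 71.3% on the fibre markers. At days 7 and 28 these shares were 53.2%, 16.8%, 44% and 60.7%, and 69.2%, 15.2%, 53.7% and 69.4%.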

Other observations

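Some arrays stood together across several of the 6 genes. Day 7 replicate 4 had the highest day 7 values of Jph1 (10.45), Jph2 (9.31), Casq1 (12.45) and Casq2 (12.07) and the lowest of Sln (11.57) and Pln (3.70). The same array had the highest mean of the fibre markers (12.86) and of the regenerating fibre markers (8.73) at day 7 and the lowest of the slow fibre markers (9.85). Day 3 replicate 4 had the lowest day 3 values of Jph1 (8.74), Jph2 (6.94) and Casq1 (10.92), the highest of Sln (11.13) and Pln (5.21), and the lowest mean of the fibre markers (12.51).

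At days 0 and 28, where Casq2 did not differ between groups beyond the spread, its values ranged widely between arrays. The day 28 arrays read 8.84, 9.34, 9.80 and 9.96 for Casq2 and 10.21, 10.57, 10.77 and 10.92 for the mean of the 5 slow fibre markers, so the 4 arrays ranked alike on both. The day 0 arrays read 9.04, 9.30, 9.65 and 9.79 for Casq2 and 9.77, 10.20, 10.15 and 10.41 for the slow markers, and did not rank alike throughout. On these day 0 arrays the smooth muscle list read 5.54, 5.91, 6.055 and 6.46, which ranked as Casq2 did. The day 3 arrays read 10.55, 10.35, 10.06 and 10.31 for Casq2 and 9.97, 9.805, 9.77 and 10.16 for the slow markers, and did not rank alike. At days 0 and 28 the Casq2 values also rose with the replicate number. The smooth muscle list at day 0 and the slow list at day 28 rose in that same order. These lists were picked from several after their values were seen, and 4 arrays can rank alike by chance. Whether Casq2 followed any marker list or the replicate number between arrays was not tested. The day 7 arrays, with 11.44, 11.05, 11.62 and 12.07 for Casq2, read 10.37, 10.19, 10.18 and 9.85 for the slow markers, so the array highest in Casq2 was lowest in slow markers on that day.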
